A study of Mus musculus with 2 samples.

Results

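The interferon-stimulated genes described here are a set of 46 antiviral and immune-effector genes chosen by symbol, of which 45 were found among the 31053 genes counted in mouse mammary cells. Mx2 was not found under its symbol and was not analysed here. The genes were followed through 5 classes of epithelial and endothelial cells in 2 single-cell RNA libraries, 1 per group. The library Ctrl came from mice carrying miR-200c/141-flox/flox, and the library cKO from mice carrying K8-CreERT2 on the same flox/flox background, so that a Cre recombinase under the luminal keratin 8 promoter could delete the miR-200c/141 locus after tamoxifen. Both groups were C57BL/6, tamoxifen is labelled at 8 to 10 weeks of age and glands were collected 4 weeks after it, followed by flow sorting to enrich mammary cells. An age label of 8 weeks is also given, and the number of mice behind a library is not given in the sources used here. Because Cre was driven from a luminal promoter, basal and endothelial cells were not its labelled target. Mature miRNAs are not counted by this assay, so the deletion itself was not checked here. With 1 library per group there is no replicate and no test between groups. Every interval below is at 95% and covers counting error only.

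Interferons are secreted proteins that cells release on sensing viral nucleic acid, and type I interferons act on nearly every cell through a shared receptor whereas type III (lambda) interferons act mainly on epithelia. Either kind activates a complex that includes STAT2 and IRF9 and binds interferon-stimulated response elements, while interferon gamma acts through gamma-activated sites. The target genes encode nucleic acid sensors, RNA-binding and RNA-cleaving proteins, the ubiquitin-like modifier ISG15 and immunity-related GTPases. In the mammary gland, milk-producing luminal cells face the duct, contractile basal cells surround them, and vessels lie in the stroma.

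After filters, 3390 Ctrl and 5442 cKO cells were kept, with medians of 19794 and 13920 UMIs (unique transcript molecules counted) per cell. Classes were cut from marker genes that include none of the 45 genes. Hormone-sensing-like luminal cells numbered 499 in Ctrl and 1084 in cKO, progenitor-like luminal cells 750 and 1425, and luminal cells holding markers of both kinds ("both-marker" cells) 854 and 1153. Basal-like cells numbered 1084 and 983, and endothelial-like cells 114 and 525. Both-marker cells were deeper than the other luminal classes, with medians of 46109 and 26498 UMIs, and the part of doublets in this class was not tested. Summed basal markers stood at 20032 and 22760 CPM (UMIs per 1000000 UMIs of the class) among basal-like cells and at 45.5 and 40.3 among hormone-sensing-like cells. They were higher in cKO among progenitor-like cells (113 and 175 CPM, 4 of 8 read at least 1.5-fold higher and 1 lower). In both-marker cells they stood at 65.9 and 115, with 5 of 9 higher. Endothelial markers stood at 3858 and 3596 CPM in endothelial-like cells. In the luminal classes they stood at 28.0 and 41.2 (hormone-sensing-like), 5.92 and 11.9 (progenitor-like) and 18.3 and 26.6 (both-marker). The part of these marker differences in the results was not tested. Among progenitor-like cells the hormone-sensing markers stood higher in cKO, at 378 and 1213 CPM, with 4 of 7 markers at least 1.5-fold higher, and the part of this in the results was not tested. Ptprc, the pan-leukocyte gene, was at 0 in hormone-sensing-like, progenitor-like and basal-like cells of both libraries. The libraries had 6 cell barcodes in common.

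Promoters show which of these genes carry the letters of the known interferon elements, and 4 are printed because they stand for the patterns that follow. Isg15, Ifit3 and Rsad2 hold response elements (GAAA, any 2 bases, then GAAA, on either strand), and Irf1 holds a gamma-activated site (TTCNNNGAA) instead. Each sequence is the 250 bases before the transcription start, from RefSeq on build GRCm38.p6, with the matched letters in capitals. The windows are Isg15 chr4:156200819-156201068, minus strand; Ifit3 chr19:34583279-34583528, plus strand; Rsad2 chr12:26456453-26456702, minus strand; and Irf1 chr11:53769764-53770013, plus strand, the first of 2 listed starts.
Isg15: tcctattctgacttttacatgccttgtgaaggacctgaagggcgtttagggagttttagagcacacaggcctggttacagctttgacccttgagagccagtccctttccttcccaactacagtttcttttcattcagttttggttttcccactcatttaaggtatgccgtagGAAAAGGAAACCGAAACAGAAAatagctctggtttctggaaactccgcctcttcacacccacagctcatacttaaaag
Ifit3: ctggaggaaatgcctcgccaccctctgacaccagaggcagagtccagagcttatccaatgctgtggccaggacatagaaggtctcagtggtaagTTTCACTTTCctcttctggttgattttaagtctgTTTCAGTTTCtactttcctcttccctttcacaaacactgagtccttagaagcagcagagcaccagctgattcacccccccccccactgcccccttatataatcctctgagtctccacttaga
Rsad2: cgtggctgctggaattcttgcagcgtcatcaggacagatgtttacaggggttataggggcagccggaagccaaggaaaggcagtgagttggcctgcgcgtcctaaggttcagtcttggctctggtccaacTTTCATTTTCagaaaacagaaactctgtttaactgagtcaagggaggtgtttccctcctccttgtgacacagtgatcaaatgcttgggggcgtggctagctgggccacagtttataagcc
Irf1: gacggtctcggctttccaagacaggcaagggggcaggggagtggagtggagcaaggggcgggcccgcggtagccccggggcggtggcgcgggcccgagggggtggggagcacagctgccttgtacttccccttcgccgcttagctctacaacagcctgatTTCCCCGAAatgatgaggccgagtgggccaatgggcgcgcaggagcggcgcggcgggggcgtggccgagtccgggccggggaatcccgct
The Isg15 window holds 3 overlapping response elements that end 56 to 68 bases before the start, the Ifit3 window holds 2, ending 112 and 146 bases before it, and the Rsad2 window holds 1, ending 110 bases before it.

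A promoter of 300 bases, from 250 before to 50 after the start, was found for 34 of the 45 genes. The response element letters occurred in 19 of these 34 genes (55.9%), against 3.99% of 27025 genes in the same table. The gamma-activated letters occurred in 9 (26.5%), against 9.55%. Bst2, Eif2ak2, Gbp7, Ifitm3, Igtp and Oas1a held both, and 12 genes held neither, among them Irf7, Irf9, Oasl1, Oasl2, Cmpk2 and Xaf1. Of the genes that were higher in all 3 luminal classes, 7 of 13 with a promoter held the response element, as did 4 of 9 of those higher in endothelial-like cells and in no luminal class. Absence of a match says only that these letters are not in this window.

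Many of the 45 genes stood higher in cKO in the luminal and endothelial-like classes, and fewer did among basal-like cells. A gene was read as higher or lower when its summed level, in CPM, differed at least 1.5-fold, and was read at all when it had at least 20 UMIs over both libraries. Among hormone-sensing-like cells 22 of 39 such genes were higher and 1 lower, where 14% of all genes read in that class were higher and 17.9% lower. The progenitor-like class had 23 of 43 genes higher and 1 lower, against 10.3% and 11.7% of all genes. In both-marker cells 23 of 43 were higher and 2 lower, against 11.8% and 18.4%. Endothelial-like cells had the most, with 37 of 43 higher and 0 lower, where 19.2% of all genes were higher and 10.3% lower. Basal-like cells had 7 of 34 genes higher and 5 lower, against 9.35% and 9.19%.

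The median log2 ratio of cKO over Ctrl over the genes read was 0.73 in hormone-sensing-like, 0.62 in progenitor-like, 0.87 in both-marker, 0.11 in basal-like and 1.26 in endothelial-like cells. Over all genes read in those classes the medians were -0.07, -0.09, -0.14, 0.03 and 0.08. Ratios ran from -1.54 to 3.64 among hormone-sensing-like cells and from -0.31 to 7.06 in endothelial-like cells. The genes too sparse to read were few in 4 classes (2 to 6) but 11 among basal-like cells, where Rsad2, Cmpk2, Trim30a, Dhx58, Ifi44 and Oasl1 were among them. Summed as molecules, the set was dominated by Ifitm3, which gave 36.3% of its Ctrl UMIs in hormone-sensing-like and 68.0% in endothelial-like cells. All 45 genes summed stood at 1.75 times the Ctrl level in hormone-sensing-like and 1.64 times in endothelial-like cells, and at 1.38 and 2.35 times without Ifitm3.

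**Figure D1:**
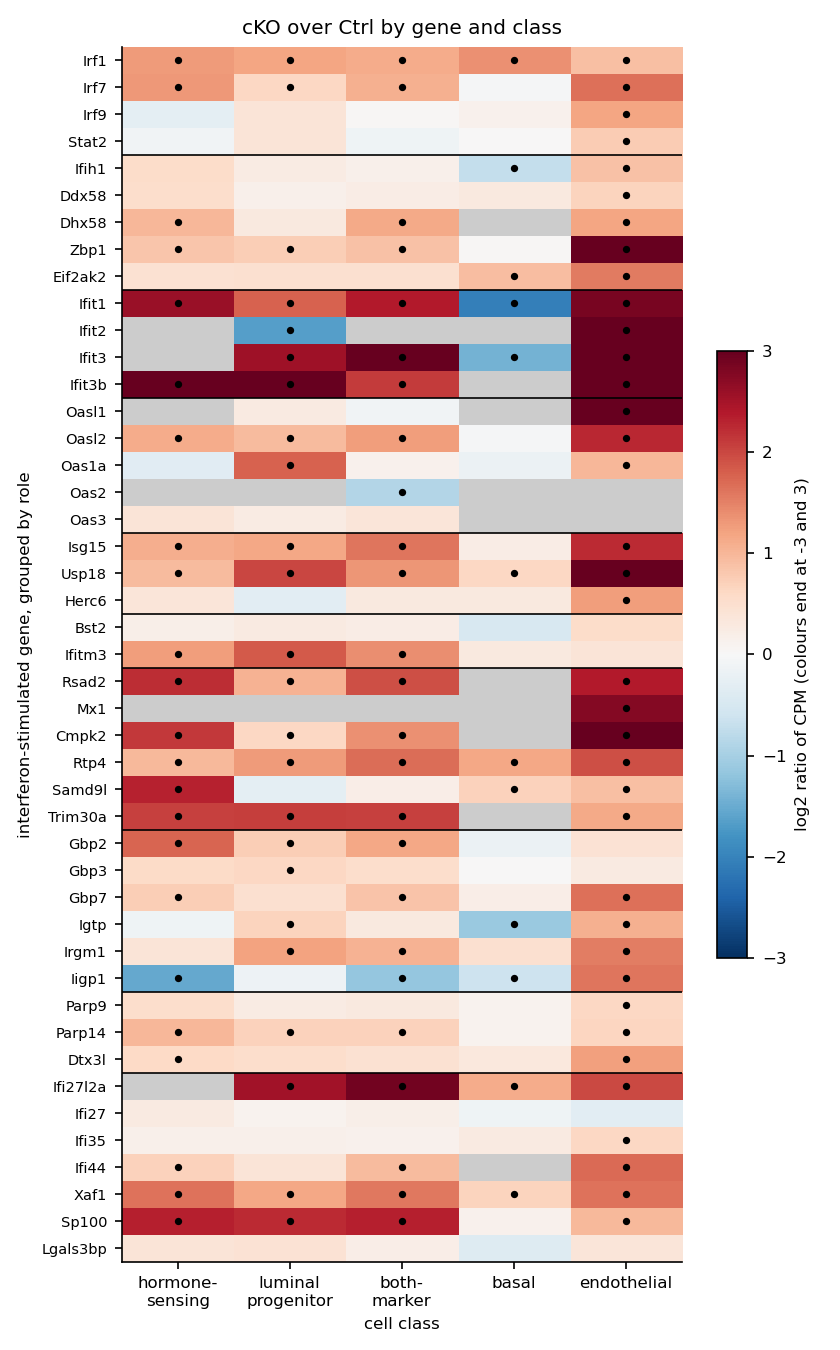
Log2 ratio of the summed level (CPM) in cKO over Ctrl for each of the 45 genes (rows, grouped by role) in 5 cell classes (columns). A dot marks a difference of at least 1.5-fold and grey fewer than 20 UMIs (colours end at -3 and 3), and the endothelial column holds 37 dots of higher level and the basal column 7 higher and 5 lower.

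Irf1, Usp18, Rtp4 and Xaf1 were higher in all 5 classes, and 12 more were higher in 4 of 5. In all 3 luminal classes 17 genes were higher, and 15 of these were also higher in endothelial-like cells, the exceptions being Gbp2 and Ifitm3. Another 12 genes passed 1.5-fold in endothelial-like cells and did not in the luminal classes, a grouping by the line whose difference between classes was not tested: Ifit2, Irf9, Stat2, Oasl1, Mx1, Ifi35, Ifih1, Ddx58, Parp9, Iigp1, Herc6 and Eif2ak2. Mx1 was read in no luminal class and Ifit2 in progenitor-like cells alone, where it was lower (23 and 10 UMIs), and the hormone-sensing-like ratios of Ddx58 (1.45), Ifih1 (1.46) and Parp9 (1.45) lay just under the line. Oas2, Oas3, Bst2, Ifi27 and Lgals3bp were higher in none of the classes where they were read. Ifit genes lie together on chromosome 19, OAS genes on chromosome 5, and Gbp2, Gbp3, Gbp7 and Ifi44 on chromosome 3.

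Of the 4 transcription factors, Irf1 and Irf7 were higher in each luminal class, Irf1 alone among basal-like cells, and all 4 in endothelial-like cells. Irf1, an early factor also induced by interferon gamma, stood at 32.1 CPM in Ctrl and 77.9 in cKO hormone-sensing-like cells (ratio 2.43, interval 2.16 to 2.73). Its progenitor-like levels were 24.0 and 54.7 CPM (2.28, 2.05 to 2.53), and its basal-like levels 42.0 and 109 CPM (2.60, 2.33 to 2.90). In endothelial-like cells it measured 68.6 and 128 CPM (1.87, 1.60 to 2.19). Irf1 was thus the regulator past 1.5-fold in every class, basal-like cells included.

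Irf7, the factor that amplifies interferon production, went from 4.64 to 11.4 CPM among hormone-sensing-like cells (2.46, 1.81 to 3.38) and from 24.6 to 77.5 in endothelial-like cells (3.15, 2.45 to 4.11). Among basal-like cells Irf7 stood at 6.79 and 6.63 CPM, a ratio of 0.977 with an interval of 0.680 to 1.39. Irf9, the DNA-binding subunit of the STAT complex, stood at 23.6 and 19.4 CPM among hormone-sensing-like cells and at 14.4 and 32.9 in endothelial-like cells (2.28, 1.63 to 3.28). Stat2, its partner, had ratios of 0.925 in hormone-sensing-like and 0.913 in both-marker cells, and of 1.69 (1.09 to 2.74) in endothelial-like cells. Exons of Irf9 overlap Rnf31 on the same strand and those of Irf7 overlap Phrf1 on the other, so reads from such pairs may be shared.

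The Ifit family, RNA-binding proteins that block translation of viral messages, was higher in 2 of 2 genes read in hormone-sensing-like, 3 of 4 in progenitor-like, 3 of 3 in both-marker and 4 of 4 in endothelial-like cells, and lower in 2 of 2 among basal-like cells. Ifit1 stood at 1.14 and 6.82 CPM among hormone-sensing-like cells (5.98, 3.41 to 11.3), 7.24 and 24.7 among progenitor-like cells (3.41, 2.85 to 4.12) and 2.73 and 14.3 in both-marker cells (5.23, 4.27 to 6.44). In endothelial-like cells it stood at 13.6 and 98.6 CPM (7.22, 5.19 to 10.4). Among basal-like cells Ifit1 was lower, at 2.65 and 0.638 CPM (34 and 5 UMIs), and 25 of the 34 Ctrl UMIs came from 5 cells. The basal-like difference in Ifit1 thus rested on few Ctrl cells. Luminal counts were concentrated too: among progenitor-like cells 5 cells gave 97 of 143 UMIs in Ctrl and 211 of 667 in cKO. Among hormone-sensing-like cells 4 Ctrl cells held all 14 UMIs, and 5 cKO cells gave 52 of 104. An Ifit1 UMI was held by 34 of 750 Ctrl and 137 of 1425 cKO progenitor-like cells, at medians of 21255 and 14621 UMIs.

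Ifit3 and Ifit3b are neighbours with partly shared 3′ sequence (6.57% of the windows of 90 bases near the end of Ifit3 also occur in Ifit3b). They were counted as separate genes, and how reads divide between them is uncertain. In both-marker cells Ifit3 went from 0.278 to 6.05 CPM (21.8, 12.2 to 42.8) and Ifit3b from 1.04 to 4.47 (4.29, 3.06 to 6.11). These counts sat in few cells: all 12 Ctrl UMIs of Ifit3 came from 3 cells, and 5 cells gave 120 of the 214 in cKO. For Ifit3b 5 cells gave 42 of 45 UMIs in Ctrl and 88 of 158 in cKO. In endothelial-like cells Ifit3 went from 8 to 1704 UMIs (3.03 to 143 CPM), a ratio of 47.0 (23.8 to 109). An Ifit3 UMI was held by 98 of the 525 cKO cells, and 5 cells gave 702 of the 1704. Ifit3b had 1 UMI in Ctrl endothelial-like cells and 605 in cKO, a ratio of 134 whose interval runs from 23.9 to 5286, and Ifit2 had 1 and 355, a ratio of 78.4 (14.0 to 3105). The Ctrl endothelial-like cells were thus almost without Ifit2 and Ifit3b, and the size of these ratios is poorly known. Of the 525 cKO endothelial-like cells, 60 held an Ifit3b UMI, and 5 cells gave 270 of the 605. An Ifit2 UMI was held by 48, and 5 cells gave 120 of the 355. In the luminal classes Ifit2 stayed near 0, with 23 and 10 UMIs among progenitor-like cells, 15 of the 23 from 1 Ctrl cell.

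The oligoadenylate synthetase (OAS) family, whose products switch on an RNA-degrading enzyme, was uneven, with 1 of 3, 2 of 4 and 1 of 5 genes higher in the luminal classes in the order above, with 1 lower in both-marker cells, 0 of 2 in basal-like and 3 of 3 in endothelial-like cells. Oasl2, an OAS-like protein, was higher in all 3 luminal classes, at 5.05 and 10.9 CPM among hormone-sensing-like cells (2.16, 1.60 to 2.93), and stood at 7.58 and 36.3 CPM in endothelial-like cells (4.78, 3.06 to 7.91). Oasl1 was level among progenitor-like cells (2.94 and 3.52 CPM) but stood at 1.90 and 18.9 CPM in endothelial-like cells (9.98, 4.22 to 31.0). Oas1a differed among progenitor-like cells only among the epithelial classes (0.861 and 2.93 CPM, ratio 3.4), and 42.3% of its end windows also occur in Oas1g. Oas2 and Oas3 were sparse, and Oas2 was lower in both-marker cells, the single class where it was read, with 18 and 8 UMIs.

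In the ISG15 pathway 2 of 3 genes were higher in each luminal class, 1 of 3 in basal-like and 3 of 3 in endothelial-like cells. Isg15, the ubiquitin-like protein attached to many targets during infection, measured 19.0 and 40.1 CPM in hormone-sensing-like (2.11, 1.82 to 2.47), 26.5 and 59.0 in progenitor-like (2.23, 2.02 to 2.46) and 16.2 and 48.9 in both-marker cells (3.02, 2.77 to 3.30). Endothelial-like cells held far more, 110 and 521 CPM (4.74, 4.21 to 5.35), and basal-like cells stood at 25.4 and 29.6 CPM (1.16, 0.979 to 1.38). Isg15 therefore differed in the luminal and endothelial-like classes, and among basal-like cells its interval spans 1.

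Usp18, which removes ISG15 and dampens receptor signalling, stood at 27.0 and 52.0 CPM among hormone-sensing-like cells (1.93, 1.69 to 2.20), 3.14 and 12.5 among progenitor-like cells (3.99, 3.04 to 5.32) and 1.90 and 34.5 in endothelial-like cells (18.2, 7.74 to 56.3). Its call among basal-like cells rested on 18 and 17 UMIs, with an interval of 0.748 to 3.18 that spans 1. Herc6, the mouse ligase for ISG15, differed past 1.5-fold in endothelial-like cells only, at 10.6 and 25.5 CPM.

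Bst2 and Ifitm3 encode membrane proteins that tether budding virus and block fusion, and both are made without infection. Ifitm3 had a basal and endothelial pattern in Ctrl: 4003 CPM in basal-like and 3773 in endothelial-like cells, against 187 to 486 in the luminal classes. In cKO the luminal classes were higher, at 1163 CPM in hormone-sensing-like (2.40, 2.33 to 2.47), 674 in progenitor-like (3.59, 3.47 to 3.72) and 947 in both-marker cells (2.61, 2.56 to 2.66). Basal-like and endothelial-like cells had ratios of 1.22 and 1.31, under the 1.5-fold line. At 3000 UMIs per cell, 32.6% of Ctrl and 61.5% of cKO progenitor-like cells held an Ifitm3 UMI. Bst2 stayed under the line everywhere, with ratios of 1.13 in hormone-sensing-like, 1.20 in progenitor-like and 1.46 in endothelial-like cells.

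**Figure D2:**
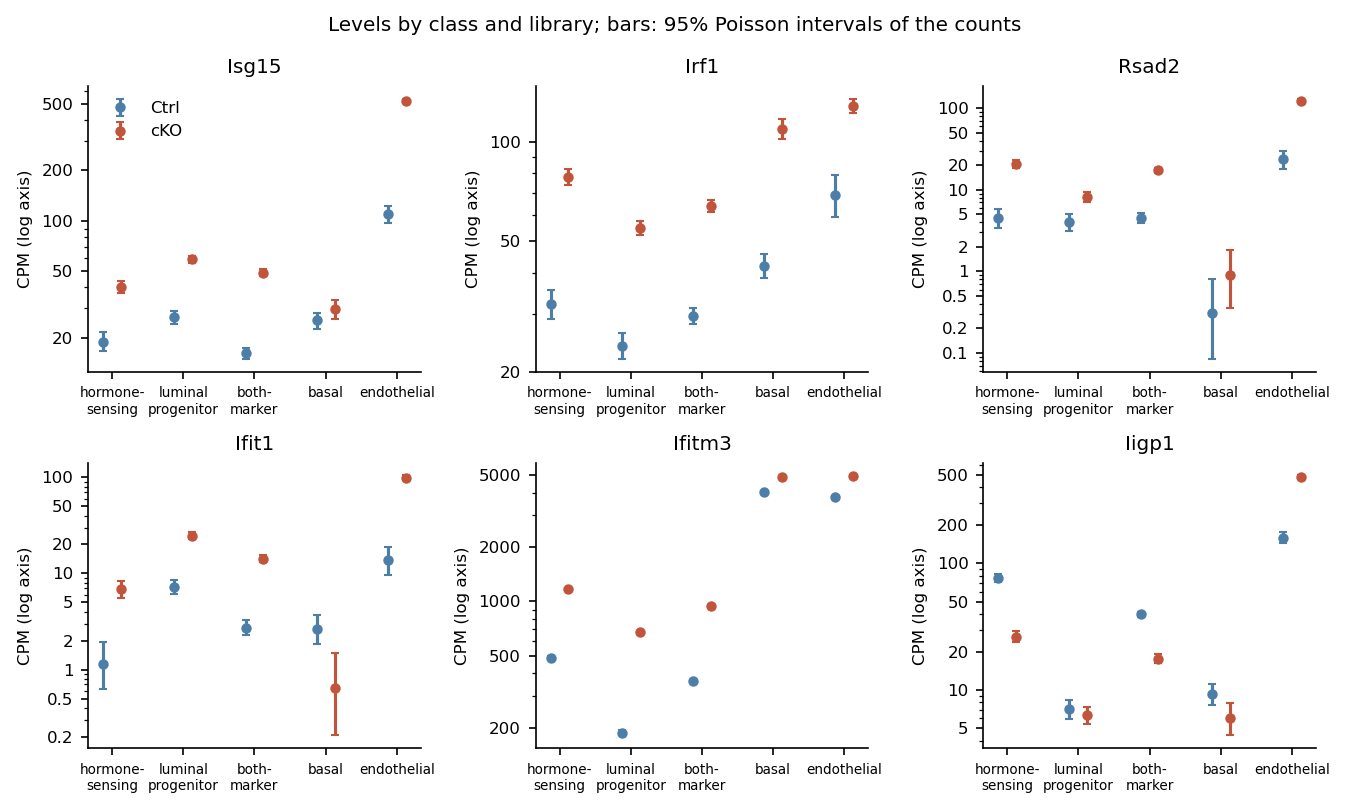
Level (CPM, log axis) of 6 genes in each class of the Ctrl and cKO libraries; points are sums over all cells of a class and bars are 95% Poisson intervals of the counts. Irf1 is higher in cKO in all 5 classes, Isg15, Rsad2 and Ifit1 in the luminal and endothelial classes, Ifitm3 past 1.5-fold in the luminal classes, and Iigp1 is lower in cKO hormone-sensing and both-marker cells and higher in endothelial cells.

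Of the other antiviral effectors, 5 of 5 were higher in hormone-sensing-like, 4 of 5 in progenitor-like and both-marker, 2 of 2 in basal-like and 6 of 6 in endothelial-like cells. Rsad2 (viperin), which makes a chain-terminating nucleotide, stood at 4.48 and 20.9 CPM among hormone-sensing-like cells (4.67, 3.50 to 6.34), and its neighbour Cmpk2, which supplies the precursor, at 0.652 and 2.82 (4.33, 2.01 to 10.7). In endothelial-like cells Rsad2 stood at 23.5 and 123 CPM (5.23, 4.06 to 6.86) and Cmpk2 at 1.52 and 24.3 (interval of the ratio 6.19 to 59.2). Among basal-like cells they had 4 and 7, and 10 and 3 UMIs. A Cmpk2 UMI was held by 8 of 499 Ctrl and 21 of 1084 cKO hormone-sensing-like cells, at medians of 21586 and 12480 UMIs. There 5 cKO cells gave 24 of the 43 Cmpk2 UMIs. An Rsad2 UMI was held by 34 and 104 of these cells, and 5 cells gave 21 of 55 in Ctrl and 123 of 319 in cKO. This pair of genes was thus seen in some luminal and endothelial-like cells, and at the edge of detection among basal-like cells.

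Rtp4, a chaperone-like interferon target, was higher in each of the 5 classes, at 17.7 and 42.9 CPM among progenitor-like cells (2.43, 2.15 to 2.75) and 5.30 and 11.9 among basal-like cells (2.24, 1.62 to 3.10). Trim30a, a regulator of inflammatory signalling, stood at 5.21 and 21.7 CPM among hormone-sensing-like cells (4.16, 3.18 to 5.53), with ratios of 4.22 in progenitor-like and 4.14 in both-marker cells. Its endothelial-like ratio, 2.18 (1.73 to 2.78), was smaller than these, at 30.3 and 66.2 CPM. Its neighbours on chromosome 7 also differed between the libraries, Trim12a from 0 to 414 UMIs and Trim30d from 5 to 440 over all kept cells, and whether the mice of the groups differ at this locus was not tested. Samd9l differed between luminal classes, with a ratio of 4.93 (2.32 to 12.1) among hormone-sensing-like cells and 0.819 (0.682 to 0.985) among progenitor-like cells. Mx1, which traps viral nucleocapsids, was read in endothelial-like cells only, with 3 and 92 UMIs (6.77, 2.25 to 33.4).

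Of the sensors of viral nucleic acid, 1 or 2 of 5 were higher in each luminal class, 1 of 4 was higher and 1 lower among basal-like cells, and 5 of 5 were higher in endothelial-like cells. Ddx58 (RIG-I) had ratios of 1.45, 1.10 and 1.16 in the luminal classes and Ifih1 (MDA5) of 1.46, 1.19 and 1.11, while in endothelial-like cells they reached 1.60 (1.27 to 2.04) and 1.85 (1.24 to 2.87). Zbp1, a sensor of Z-form nucleic acid linked to cell death, was higher in all 3 luminal classes, at 4.56 and 8.07 CPM among hormone-sensing-like cells (1.77, 1.28 to 2.47), and at 3.41 and 28.3 in endothelial-like cells (8.29, 4.32 to 18.3). Dhx58 (LGP2), a partner of both helicases, was past the line in hormone-sensing-like (1.98, 1.21 to 3.33), both-marker (2.19, 1.66 to 2.90) and endothelial-like cells (2.27, 1.22 to 4.67). Eif2ak2 (PKR), the kinase that halts translation, was called in basal-like (9.20 and 17.6 CPM, 1.91, 1.48 to 2.47) and endothelial-like cells (2.93, 2.21 to 3.95), with ratios of 1.38 to 1.40 in the luminal classes.

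The GTPases attack the vacuoles of intracellular pathogens and respond strongly to interferon gamma. In each luminal class 2 to 4 of 6 were higher, with 0 in basal-like and 4 in endothelial-like cells. Of all genes read, 10.3% to 14% were higher in the luminal classes and 19.2% in endothelial-like cells. In the 5 classes 1, 0, 1, 2 and 0 GTPases were lower. The 1 of 6 lower in hormone-sensing-like and in both-marker cells, Iigp1, is near the 17.9% and 18.4% of all genes there. For basal-like cells that share was 9.19%. Gbp2 was higher in the luminal classes, at 18.1 and 60.7 CPM among hormone-sensing-like cells (3.36, 2.90 to 3.91), and stood at 54.6 and 73.2 in endothelial-like cells (1.34, 1.12 to 1.61). Irgm1 was higher in progenitor-like (2.30, 1.81 to 2.96), both-marker (2.07, 1.72 to 2.5) and endothelial-like cells (2.90, 2.22 to 3.86). Gbp7 was higher in hormone-sensing-like (1.66), both-marker (1.82) and endothelial-like cells (3.16), and Gbp3 passed the line in progenitor-like cells alone (1.54). Iigp1 went the other way in 3 classes, with 76.9 and 26.5 CPM among hormone-sensing-like cells, 2.90-fold lower (2.58 to 3.27), and 39.8 and 17.7 in both-marker cells, 2.25-fold lower (2.05 to 2.47). Basal-like cells were the third, with 119 and 47 UMIs, 89 of the 119 from 5 Ctrl cells. Progenitor-like cells held 140 and 172 Iigp1 UMIs and did not differ past 1.5-fold. In endothelial-like cells Iigp1 was higher, at 160 and 482 CPM (3.02, 2.74 to 3.34), and 5 cells gave 258 of 421 UMIs in Ctrl and 622 of 5758 in cKO. The lower Iigp1 level among hormone-sensing-like cells was seen over many cells, with an Iigp1 UMI in 18.1% of Ctrl and 6.83% of cKO cells at 3000 UMIs each.

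Igtp stood at 12.1 and 5.61 CPM among basal-like cells, 2.15-fold lower (1.53 to 3.08), and at 31.1 and 64.9 in endothelial-like cells (2.09, 1.66 to 2.65). In the endothelial-like class 5 cells gave 67 of 82 Igtp UMIs in Ctrl and 142 of 775 in cKO. Exons of Igtp overlap those of Irgm2 on the same strand. Parp14, an ADP-ribosyltransferase, was higher in the 3 luminal classes (2.01, 1.60 and 1.62) and in endothelial-like cells (1.56). Parp9 and its partner Dtx3l overlap on opposite strands and were at ratios of 1.45 and 1.51 among hormone-sensing-like cells.

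The remaining genes held both wide and flat ratios. Sp100, a nuclear body protein, measured 0.652 and 3.28 CPM in hormone-sensing-like (5.03, 2.37 to 12.3), 0.759 and 3.56 in progenitor-like (4.68, 2.70 to 8.69) and 0.695 and 3.51 in both-marker cells (5.05, 3.36 to 7.79), so its 3 luminal ratios lay between 4.68 and 5.05. Ifi27l2a, a mitochondrial interferon target, stood at 3.80 and 21.9 CPM among progenitor-like cells (5.77, 4.53 to 7.43) and at 80.0 and 314 in endothelial-like cells (3.93, 3.42 to 4.54), but had 4 and 9 UMIs among hormone-sensing-like cells. Xaf1, a promoter of apoptosis, was higher in every class, from 1.58 (1.18 to 2.13) in basal-like to 3.09 (2.58 to 3.73) among hormone-sensing-like cells. Ifi44 was higher in hormone-sensing-like (1.61, 0.875 to 3.07), both-marker (1.94, 1.45 to 2.61) and endothelial-like cells (3.22, 2.38 to 4.46). Ifi35 passed the line in endothelial-like cells alone (1.55), and the ratios of Lgals3bp, a secreted glycoprotein, ran from 0.763 in basal-like to 1.36 in progenitor-like cells. Ifi27, another mitochondrial protein of the same family, was under the line everywhere, with ratios from 0.808 in endothelial-like to 1.21 among hormone-sensing-like cells.

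To ask whether the difference was broad or sat in few cells, 22 of the genes were summed per cell as an antiviral core (Isg15, the Ifit and OAS genes, the RNA sensors with Zbp1, Rsad2, Cmpk2, Irf7, Usp18, Rtp4, Ifi44, Xaf1 and Mx1). The summed core stood at 131 and 272 CPM among hormone-sensing-like cells (2.08, 1.96 to 2.20), 145 and 283 in progenitor-like (1.95, 1.87 to 2.03) and 126 and 288 in both-marker cells (2.28, 2.21 to 2.36). In endothelial-like cells it stood at 312 and 1514 CPM (4.86, 4.53 to 5.22), and among basal-like cells at 79.0 and 93.0 (1.18, 1.07 to 1.30). The 3 luminal classes were close to each other in both libraries, and endothelial-like cells had the highest core in either.

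Each cell was then thinned to 3000 UMIs, leaving out 4 to 74 shallower cells per class and library. The mean core count per cell was 0.444 in Ctrl and 0.739 in cKO hormone-sensing-like cells, 0.423 and 0.860 in progenitor-like, 0.415 and 0.864 in both-marker, 0.231 and 0.286 in basal-like, and 1.36 and 5.70 in endothelial-like cells. The share of cells with at least 1 core UMI was 30.8% (26.7 to 35.1) and 45.1% (42.0 to 48.2) among hormone-sensing-like cells. It was 24.2% and 37.6% in progenitor-like, 29.3% and 44.6% in both-marker, 15.2% and 21.7% in basal-like and 49.1% and 69.6% in endothelial-like cells. More cells thus held a core UMI in cKO in every class, though most luminal cells of either library held none at this depth.

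Cells with at least 3 core UMIs of 3000 made up 1.64% of Ctrl and 5.58% of cKO hormone-sensing-like cells, 3.11% and 8.14% of progenitor-like cells and 2.35% and 7.34% of both-marker cells. In the basal-like class the shares were 1.45% (0.814 to 2.38) and 1.43% (0.764 to 2.43), and a difference was not detectable at this depth. At 6000 UMIs, with 140 and 303 shallower cells left out, they were 2.54% (1.64 to 3.76) and 4.85% (3.36 to 6.75). In endothelial-like cells the share was 13.2% (14 of 106) and 34.6% (175 of 506). The far tail was long in cKO endothelial-like cells, where the highest cell held 143 core UMIs of its 3000, against 15 in Ctrl. The ratio of variance to mean went from 4.48 to 39.8 there, from 3.89 to 6.42 in progenitor-like and from 1.73 to 4.23 in both-marker cells, from 2.73 to 2.06 among hormone-sensing-like cells and from 3.72 to 1.52 among basal-like cells.

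**Figure D3:**
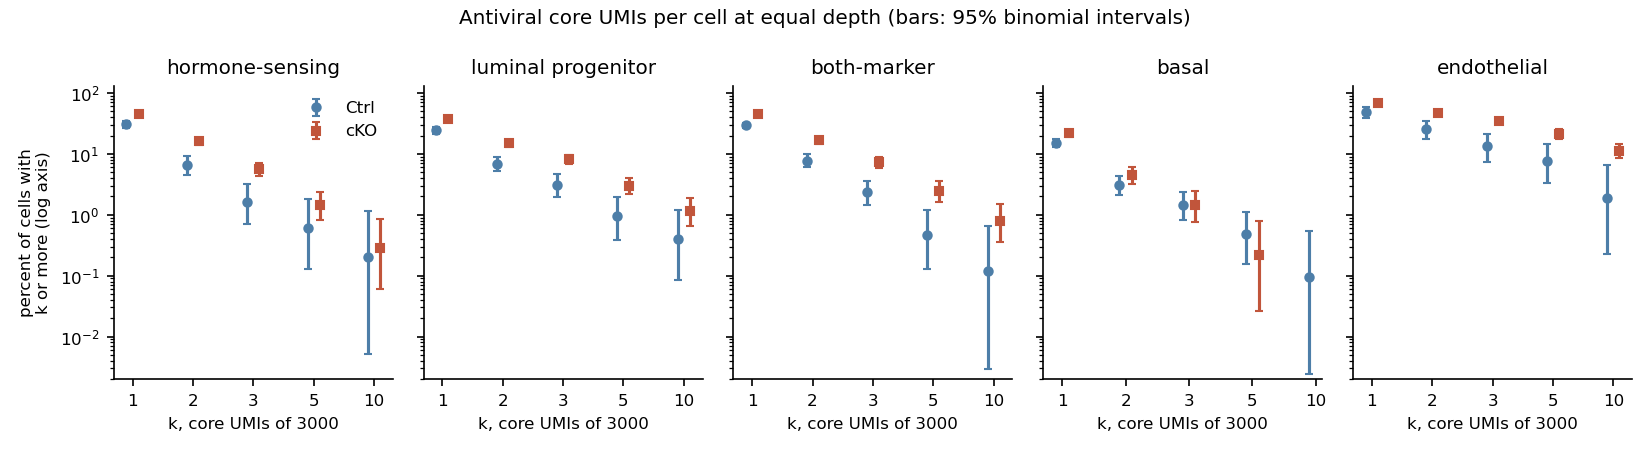
Percent of cells (log axis) with at least 1, 2, 3, 5 or 10 antiviral core UMIs after thinning each cell to 3000 UMIs, in 5 classes of the Ctrl and cKO libraries; bars are exact 95% binomial intervals and values of 0 are not drawn. The cKO points lie above Ctrl at 1 UMI in all 5 classes, endothelial cells stand at 1.89% and 11.3% at 10 UMIs, and basal cells at 1.45% and 1.43% at 3 UMIs.

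The highest 5% of cells, ranked by the core's share of their own UMIs, carried 25.7% of core UMIs in Ctrl and 27.0% in cKO hormone-sensing-like cells, and 42.0% and 39.4% among progenitor-like cells. Without them the core ratios were 2.06 (1.92 to 2.20) and 2.02 (1.91 to 2.14), against 2.08 and 1.95 with them. In both-marker cells the share was 25.4% and 33.5%, and the ratio went from 2.28 to 2.05 (1.97 to 2.13). Without the highest 5%, core levels were 101 and 208 CPM in hormone-sensing-like, 88.6 and 179 in progenitor-like and 98.5 and 202 in both-marker cells. With all cells they were 131 and 272, 145 and 283, and 126 and 288. The luminal ratios thus stayed at 2.02 to 2.06 without the highest 5% of cells, which still carried part of the difference in level. The median core content of a hormone-sensing-like cell was 0.831 per 10000 UMIs in Ctrl and 1.84 in cKO, at unequal median depths of 21586 and 12480 UMIs. At 3000 UMIs each the median was 0 in both libraries.

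In endothelial-like cells the ratio fell more without the highest cells. The highest 5%, 27 cells, carried 52.2% of all core UMIs in cKO, against 23.5% in the 6 such cells of Ctrl. Without them the ratio went from 4.86 to 3.08 (2.84 to 3.34), and without the highest 10% to 2.65 (2.42 to 2.91), so both a general shift and a small set of very high cells were present. The 27 cells gave 1.01% to 5.02% of their UMIs to the core, held a median of 19 of its 22 genes, and held 0 UMIs of 8 immune marker genes. By marker gates 12 of them were high endothelial-like, 12 lymphatic-like and 3 blood endothelial-like, whereas all 6 of the Ctrl cells were blood endothelial-like.

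**Figure D4:**
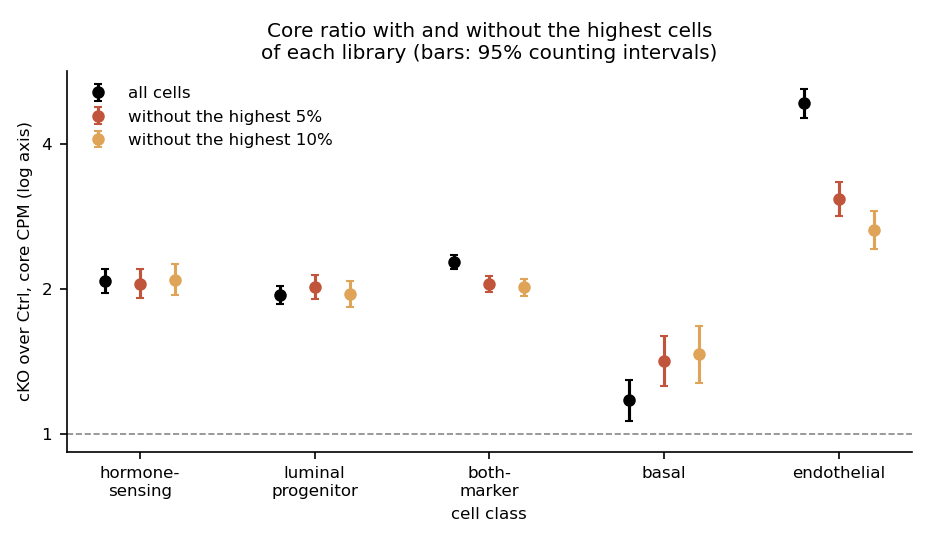
Ratio of the antiviral core level (CPM, log axis) in cKO over Ctrl, over all cells of a class and without the highest 5% or 10% of cells of each library; bars are 95% counting intervals and the dashed line marks equal levels. The luminal ratios stay between 1.95 and 2.28, the endothelial ratio goes from 4.86 to 3.08 and 2.65, and the basal ratio from 1.18 to 1.42 and 1.47.

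Among basal-like cells the highest 5% worked the other way. They carried 41.4% of core UMIs in Ctrl and 28.9% in cKO, and without them the ratio was 1.42 (1.26 to 1.60) instead of 1.18. Single cells weighed heavily in these sums, since all 22 Ctrl UMIs of Ifit3 came from 4 cells, 11 of them from 1 cell.

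How far the core genes were high in the same cells varied by class. When the core was cut into 2 parts of 11 genes, progenitor-like cells of cKO with 0 UMIs of the first part had a mean of 0.164 UMIs of the second, and those with at least 2 had 1.41. The matching means in Ctrl were 0.126 and 1.31. In Ctrl hormone-sensing-like cells the second part had means of 0.214, 0.185 and 1 UMIs in cells with 0, 1 and at least 2 UMIs of the first. In endothelial-like cKO cells the means were 0.386 and 5.35, and across these 506 cells the parts had a Pearson correlation of 0.861, which describes cells of 1 library that share their depth and their subtype. The correlations were 0.345 in Ctrl and 0.285 in cKO hormone-sensing-like, 0.515 and 0.66 in progenitor-like, 0.224 and 0.532 in both-marker, and 0.354 and 0.143 in basal-like cells, and 0.504 in Ctrl endothelial-like cells.

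The mix of endothelial subtypes differed between the libraries, so each was also compared alone. Lymphatic-like cells numbered 4 in Ctrl and 88 in cKO and were not compared; their core stood at 4124 CPM in cKO. Blood endothelial-like cells numbered 62 and 126, with core levels of 432 and 1795 CPM (4.15, 3.75 to 4.62), and high endothelial-like cells, which express Glycam1 and admit lymphocytes from blood, numbered 48 and 311 with 235 and 1188 CPM (5.05, 4.56 to 5.61). Of the 45 genes, 30 of 42 read were higher and 0 lower in blood endothelial-like cells, against 18.5% and 9.36% of all genes, and 35 of 43 were higher and 0 lower in high endothelial-like cells, against 24.6% and 6.99%. The 5% of highest cells weighed more in the blood subtype: without 4 and 7 cells its ratio was 1.76 (1.55 to 2.01), against 2.75 (2.45 to 3.10) in the high endothelial-like subtype. Without the highest 10% the ratios were 2.16 and 2.38.

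Irf1 stood at 129 and 170 CPM in blood (1.32, 1.07 to 1.64) and at 32.6 and 117 in high endothelial-like cells (3.6, 2.73 to 4.84). Rsad2 had 61 of its 62 Ctrl UMIs in blood endothelial-like cells and 1 in high endothelial-like cells, where cKO held 557 (interval of the ratio 17.7 to 3916). Rsad2 was held by few cells: 5 cells gave 374 of these 557 UMIs, and 51 of the 61 in Ctrl blood endothelial-like cells. Isg15 was higher in both subtypes, with ratios of 4.28 (3.63 to 5.08) and 4.76 (3.94 to 5.79). In the blood subtype 1 cKO cell gave 581 of the 1328 Isg15 UMIs and 5 cells gave 884 of them.

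As a measure of free RNA from endothelial-like cells, Glycam1 and the other 3 high endothelial markers were counted among hormone-sensing-like cells at 30.8 CPM in Ctrl and 227 in cKO. At the ratio of core to these markers inside cKO endothelial-like cells, 227 CPM would bring 2.95 CPM of core, or 1.08% of the 272 CPM counted. The same sum gave 0.697% in progenitor-like, 0.613% in both-marker and 2.73% among basal-like cells. These sums cover only free RNA that comes along with the high endothelial markers. Free core RNA from cells poor in these markers was not measured. The dissociation-response list of 9 genes stood at 6134 CPM in Ctrl and 7590 in cKO hormone-sensing-like cells, at 5411 and 6573 in progenitor-like, 5633 and 7114 in both-marker, 4423 and 3863 in basal-like and 3331 and 2542 in endothelial-like cells, and its part in the result was not tested. Of 8 T and NK markers, 2 were detected in Ctrl and 3 in cKO hormone-sensing-like cells, at 7.82 and 40.9 CPM in sum, with Ptprc, Cd3e, Cd3g and Cd3d at 0 in both. Without cells that held an immune UMI, the core log2 ratio was 1.24 in both-marker cells against 1.19 with them, and 2.49 against 2.28 in endothelial-like cells.

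Of the interferon ligands themselves, type III transcripts were counted and the others were nearly absent. Ifnb1, Ifna1, Ifna2, Ifna4, Ifna5 and Ifng were at 0 UMIs in all kept cells of both libraries, where a count of 0 allows up to 3 UMIs per library. Ifnl2 had 26 UMIs in Ctrl and 162 in cKO, and Ifnl3 had 75 and 333. These are paralogs with partly shared ends, so their UMIs were also summed. They were counted in the luminal classes: hormone-sensing-like cells stood at 2.04 and 7.67 CPM (25 and 117 UMIs, ratio 3.77, 2.43 to 6.06), both-marker cells at 1.65 and 7.64 (71 and 270 UMIs, 4.64, 3.56 to 6.12) and progenitor-like cells at 0.101 and 3.48 (2 and 94 UMIs, 34.4, 9.26 to 288). The 94 UMIs came from 28 cells, with 20 UMIs from 1 cell, so the size of the progenitor-like ratio is poorly known. There 5 cells gave 36 of the 45 Ifnl2 UMIs and 28 of the 49 Ifnl3 UMIs in cKO.

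Basal-like cells held 0 and 3 UMIs of Ifnl2 and Ifnl3 together, and endothelial-like cells 0 and 3. Among hormone-sensing-like cells, at medians of 21586 and 12480 UMIs, 4.21% of Ctrl and 4.52% of cKO had a UMI, and the highest cell held 3 in Ctrl and 16 in cKO. The progenitor-like shares were 0.267% and 1.96%, at medians of 21255 and 14621 UMIs. In both-marker cells 5.04% and 8.33% had one, at medians of 46109 and 26498 UMIs per cell. In cKO hormone-sensing-like cells the 49 cells with an Ifnl UMI had a mean core of 1.35 at 3000 UMIs, and the 991 without had 0.709. In Ctrl the means were 0.429 over 21 cells and 0.444 over 466. The core was thus also higher in cKO among cells without an Ifnl UMI, and cells with one were deeper (medians of 15630 and 12335 UMIs in cKO).

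**Figure D5:**
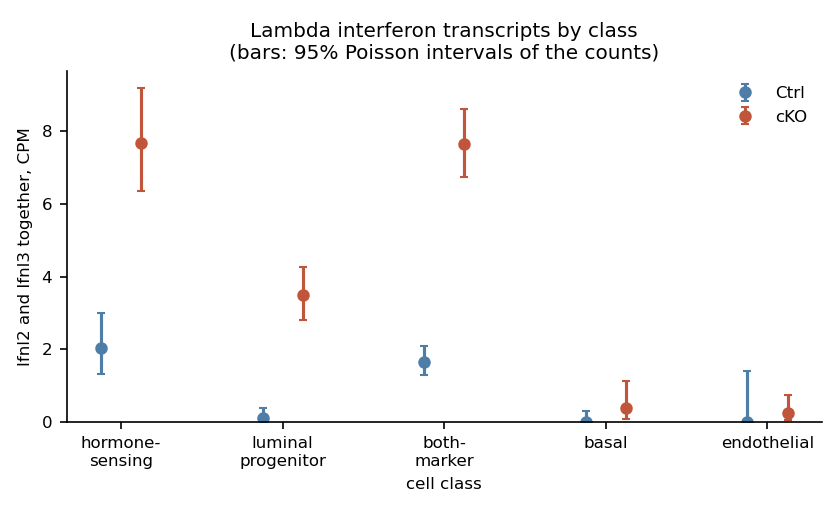
Summed level (CPM) of Ifnl2 and Ifnl3 in 5 classes of the Ctrl and cKO libraries; bars are 95% Poisson intervals of the counts. The 3 luminal classes stand at 3.48 to 7.67 CPM in cKO and 0.101 to 2.04 in Ctrl, and basal and endothelial cells stand near 0 in both.

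The receptors did not differ past 1.5-fold in any luminal class (0 of 6). Ifnlr1, the lambda-specific chain, stood at 9.29 and 7.61 CPM among hormone-sensing-like cells (log2 ratio -0.29, -0.67 to 0.10) and Ifnar1 at 11.8 and 10.0. Among basal-like cells Ifngr2 was higher, at 45.0 and 80.0 CPM, as was Il10rb, the second chain of the lambda receptor, at 12.1 and 19.9. The counts of the pathway lists stand against the shares of all genes given above (14% higher and 17.9% lower in hormone-sensing-like, 10.3% and 11.7% in progenitor-like, 11.8% and 18.4% in both-marker, 9.35% and 9.19% in basal-like, 19.2% and 10.3% in endothelial-like cells). The list of kinases, STATs and inhibitors also held Isg20, which is none of these. Of this list, 3 of 10 were higher and 3 lower among hormone-sensing-like cells, 2 and 0 of 10 in progenitor-like, 2 and 4 of 10 in both-marker, 3 and 0 of 8 in basal-like and 5 and 0 of 9 in endothelial-like cells. Socs1, a feedback inhibitor of JAK kinases, was higher in all 5 classes, from 8.15 and 20.5 CPM among hormone-sensing-like cells to 14.8 and 54.5 in endothelial-like cells. Isg20, an exonuclease, was lower among hormone-sensing-like cells (274 and 88.1 CPM) and higher in endothelial-like cells (5.69 and 23.1).

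Of 11 genes of nucleic acid sensing and adaptors read, 0 were higher and 1 lower among hormone-sensing-like cells, 1 and 0 in progenitor-like, 0 and 0 in both-marker, and 5 and 2 in endothelial-like cells. The basal-like class had 2 of 10 genes higher and 1 lower. Samhd1, which depletes nucleotides, was the lower one among hormone-sensing-like cells, at 39.0 and 19.9 CPM, and Tlr3, a receptor for double-stranded RNA, stood at 3.79 and 10.8 CPM in endothelial-like cells. A further list of interferon-stimulated genes, 47 of 51 found, had 12 of 31 higher and 5 lower in hormone-sensing-like, 13 of 34 and 1 in progenitor-like, 15 of 40 and 3 in both-marker, 2 of 23 and 3 in basal-like and 36 of 45 and 0 in endothelial-like cells. Against the same shares, the lower count in hormone-sensing-like and the higher count in basal-like cells were near those of all genes. Phf11d stood at 13.2 and 69.5 CPM among hormone-sensing-like cells, and Trim25, a ligase that activates RIG-I, was lower among progenitor-like cells, at 31.0 and 10.2 CPM.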

How the data were processed

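Single-cell RNA libraries of mouse mammary cells, 1 per group, were read from the UMI counts per gene and cell that the authors deposited, aligned to mm10. The submitters' processing notes name Cell Ranger 2 and the file header names software 3.0.0. Cells with at least 500 genes and at most 10% mitochondrial counts were kept, and Scrublet's highest scores were removed at 0.8% per 1000 cells (26 and 51 cells). Kept libraries held 92854682 (Ctrl) and 101343290 (cKO) UMIs. Classes were cut from marker UMIs per 10000, with cuts set after seeing the marker distributions, and 10.0% to 37.5% of luminal cells lay within 1.5-fold of a cut. Levels are summed UMIs per 1000000, with exact Poisson, binomial (Clopper-Pearson) and conditional binomial intervals at 95%, which cover counting error only. A library at 0 was set to a floor of 3 counts. Per-cell scores used cells thinned to 3000 UMIs. Named genes were the 8 farthest from 0 in each class with at least 50 UMIs, the 5 of highest level and the 4 regulators; values of other genes were added after they were seen. The genes, lists and cuts were chosen with earlier results of these data known. Positions come from GENCODE M21 and promoters from RefSeq, both GRCm38. Alternatives were run with Python 3.11.15, scanpy 1.11.5 and edgeR 4.0.16 (TMM scaling only), and the code was checked on simulated data. Some results are not reported here.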

Additional observations from a re-analysis of the deposited data

Results flagged for a closer look

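Several genes stood past 1.5-fold in opposite directions in different classes of the same libraries. These differences between classes were not tested, and all values are log2 ratios of cKO over Ctrl. Ifit1 was higher in hormone-sensing-like (2.58), progenitor-like (1.77), both-marker (2.39) and endothelial-like cells (2.85). It was lower in basal-like cells (-2.06), where 5 Ctrl cells held 25 of 34 UMIs. In progenitor-like cells 5 Ctrl cells held 97 of its 143 UMIs. Ifit2 was higher in endothelial-like cells (6.29, from 1 Ctrl UMI) and lower in progenitor-like cells (-1.65), where 1 Ctrl cell held 15 of 23 UMIs. Igtp was higher in progenitor-like (0.658) and endothelial-like cells (1.06) and lower in basal-like cells (-1.11), where 104 Ctrl and 41 cKO cells held it. Iigp1 was higher in endothelial-like cells (1.59) and lower in hormone-sensing-like (-1.54), both-marker (-1.17) and basal-like cells (-0.631). In hormone-sensing-like cells 54.7% of Ctrl and 20.6% of cKO cells held an Iigp1 UMI, at medians of 21586 and 12480 UMIs per cell, and 18.1% and 6.83% did at 3000 UMIs each. In basal-like cells 1 Ctrl cell held 42 of the 119 Iigp1 UMIs, and 5 Ctrl cells held 89. Among Ctrl endothelial-like cells 5 cells held 67 of 82 Igtp UMIs and 258 of 421 Iigp1 UMIs.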

How the results depend on the processing

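No paired analysis was possible because the labels carry no replicate numbers and each group is 1 library. Of 203 alternatives for the main results, 180 kept their value within the counting interval or within 1.5 times the count, 23 moved and 0 reversed a called direction; for single genes 937 of 1057 kept theirs, 120 moved and 0 reversed a called direction. TMM scaling shifted the log2 ratios by 0.056, 0.082, 0.12, -0.032 and -0.077 in hormone-sensing-like, progenitor-like, both-marker, basal-like and endothelial-like cells. The log2 core ratio became 1.04 (progenitor-like, from 0.96) and 1.31 (both-marker, from 1.19) with TMM. With both-marker cells counted in both luminal gates it was 1.15 in hormone-sensing-like cells (from 1.06) and 1.11 in progenitor-like cells, where weighting each cell equally gave 1.02. In both-marker cells it was 1.24 without cells holding an immune UMI and 1.12 without the most-counted gene. In endothelial-like cells (2.28) it was 2.49 without cells holding an immune UMI and 2.05 in blood endothelial-like cells alone, an alternative chosen after seeing the data; leaving out the highest 10% of cells gave 1.41 against 1.62 without 5%. At a fold of 2, higher genes numbered 15 in progenitor-like cells (from 23) and 3 in basal-like cells (from 7); reading genes from 1 UMI gave 14 in basal-like cells. Log2 ratios of the mean score became 0.99 at 1000 UMIs in hormone-sensing-like cells (from 0.74) and 1.29 at both 1000 and 6000 UMIs in both-marker cells (from 1.06), whose share of high cells became 2.44 at 1000 UMIs (from 1.64). Scoring all 45 genes gave a mean of 0.79 (progenitor-like, from 1.02) and 0.73 (endothelial-like, from 2.07), and a share of high cells of 0.27 (hormone-sensing-like, from 1.76), 0.65 (progenitor-like, from 1.39), 0.47 (both-marker, from 1.64) and 0.00 (endothelial-like, from 1.39). That score is saturated in endothelial-like cells, where 106 of 106 Ctrl and 506 of 506 cKO cells hold at least 3 UMIs. The share of high basal-like cells had a log2 ratio of -0.02 (-1.21 to 1.15), and of 0.93 (0.13 to 1.75) at 6000 UMIs and -0.86 at 1000. The cause was not tested for the other results. Depth limits basal-like cells, where 11 genes had under 20 UMIs.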

Other observations

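The Trim genes next to Trim30a were read after their values were seen. They lie on chromosome 7 between 104244457 and 104507849 (GENCODE M21, GRCm38), and near-identical copies in such a cluster can share reads. Of the windows of 90 bases near the end of Trim30a, 0% occur in another gene. The ends of the other Trim genes were not checked in this way. Trim12a had 0 UMIs over all 3390 kept Ctrl cells, where a count of 0 allows up to 3, and 414 UMIs in 350 of the 5442 cKO cells. Trim30d had 5 and 440 UMIs, Trim34a 36 and 307, and Trim5 1 and 38. Trim12c had 883 and 1148 UMIs, and Trim30a itself 388 and 2127. Whether the mice of the groups differ at this locus was not tested. Of the other interferon ligands, Ifnz had 7 and 14 UMIs, Ifnk 2 and 3, and Ifne 2 and 0.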
